A study of Mus musculus with 12 samples.

Results

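The clustered protocadherins were examined in poly(A) RNA-seq of mouse hippocampus, as all genes whose symbol by Ensembl ID starts with *Pcdha*, *Pcdhb* or *Pcdhg*. The rule found 25 of the 37991 genes in the count tables, of which 2 carry an alpha, 22 a beta and 1 a gamma symbol. The libraries came from 12 C57BL/6N mice, 6 labelled wild type and 6 labelled *Gadd45a*-KO, all killed 1 h after training in the passive avoidance test. The mice were siblings from crosses of heterozygotes, 6 to 7 months old by the sample labels, while the methods of the study give adult males of 2 to 6 months. The mutant carries a neomycin cassette in place of the first exons of *Gadd45a* in every cell and keeps the last exon. The tissue is whole hippocampus, so fewer cells of a type and less RNA per cell cannot be told apart.

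Clustered protocadherins are adhesion proteins of the cadherin superfamily that sit on the surface of neurons and bind identical isoforms on other cells. Each neuron expresses a small and partly random choice of them, which gives it an identity by which its branches avoid each other and find partners. In the alpha and gamma clusters, each of many variable first exons has its own promoter and is spliced to constant exons shared by the whole cluster. The beta genes lie between these clusters and are separate genes with 1 coding exon each, without constant exons. Promoter choice depends on the insulator protein CTCF, on the cohesin complex and on DNA methylation.

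The 25 members lie on the plus strand of chromosome 18 of NCBIM37, from 37089939 to 38001527. RefSeq names 14 alpha, 22 beta and 22 gamma genes, and the beta genes alone have one Ensembl ID each. In the annotation used here, the alpha cluster is a single model from 37089939 to 37347311 under the symbol *Pcdha11* (ENSMUSG00000007440), with 10 transcripts from 10 different first exons. A separate *Pcdha3* model (ENSMUSG00000091969) lies within that span and shares no exon with it. The gamma cluster is likewise a single model from 37833989 to 38001527 under the symbol *Pcdhgc5* (ENSMUSG00000023036), with 10 transcripts from 10 first exons. The counts of *Pcdha11* and *Pcdhgc5* are therefore called the alpha model and the gamma model below, since reads of their isoforms and shared constant exons are added up and no single isoform can be read from them. The C-type members *Pcdhac1*, *Pcdhac2*, *Pcdhgc3* and *Pcdhgc4* have no ID of their own and no value. With 10 first exons, each merged model has fewer than RefSeq has genes of its cluster, so it need not hold every isoform.

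Between 44594261 and 55540601 reads per library fell on genes, and the clustered protocadherins held 0.098% to 0.105% of them. Reads on *Gadd45a* were higher under the *Gadd45a*-KO label, at 21.4 ± 1.07 CPM (counts per gene scaled to a common library size, SD, n = 6), than under the wild type label, at 2.58 ± 0.48 CPM. Counts per gene do not separate the deleted from the remaining exons, so those of *Gadd45a* cannot check the labels. *E230016M11Rik*, whose first exon overlaps *Gadd45a* on the other strand, had 3.48 ± 0.21 CPM under the wild type label and 0.163 ± 0.069 CPM under the *Gadd45a*-KO label. Libraries are therefore named by their labels throughout, and every direction below is that of the labels. Counts were scaled with TMM factors, 16399 genes passed the expression filter, and each was tested between the labels by edgeR's quasi-likelihood method, with Benjamini-Hochberg adjustment over all of them. A call was made at 1% false discovery rate (FDR). Of the 25 members, 24 were tested, and only *Pcdhb1* was filtered out, with 1 to 23 reads per library.

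The beta cluster was the one cluster with called members. Of its 21 tested genes, *Pcdhb2* and *Pcdhb21* were lower under the *Gadd45a*-KO label at 1% FDR. These 2 were 9.52% of the tested beta genes against 2.62% of all tested genes. None was higher, where 0.0244% of all tested genes were higher. At 5% FDR, *Pcdhb16* and *Pcdhb19* were also lower, which makes 4 of 21 or 19.0%, against 4.43% of all tested genes. With so few members, the shares of 9.52% and 19.0% rest on 2 and 4 genes. The alpha cluster had 0 of 2 and the gamma cluster 0 of 1 tested members past 5% FDR. At an unadjusted p under 0.05, edgeR gave 5 lower genes of the 21 tested beta genes, against 9.35% of all tested genes. It also gave 1 higher beta gene (*Pcdhb12*), the higher *Pcdha3* and 0 gamma models. The share of all tested genes that were higher at this level was not examined. DESeq2 called the same 4 beta genes at 1% FDR, where it placed 3.77% of its tested genes, and 0 alpha or gamma models. At 5% FDR 0 beta genes were higher in edgeR's test, against 0.122% of all tested genes.

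**Figure D1:**
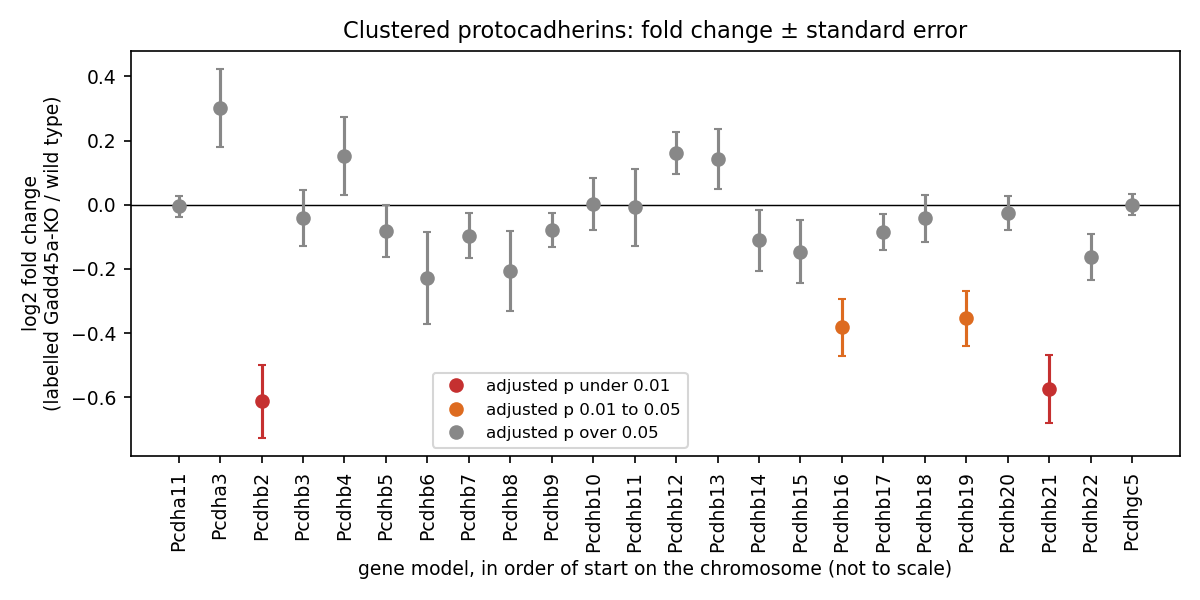
Log2 fold change of the 24 tested gene models between libraries labelled *Gadd45a*-KO and wild type (6 each), in chromosomal order, with the standard error as bars. *Pcdhb2* and *Pcdhb21* lie lowest at -0.61 and -0.57, followed by *Pcdhb16* and *Pcdhb19*, while *Pcdha11* (the alpha model) and *Pcdhgc5* (the gamma model) lie at 0.

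*Pcdhb2* (ENSMUSG00000051599) lies at 37454494-37457267 and has a single exon with a coding sequence of 2397 nt and an annotated 3′UTR of 238 nt. The libraries labelled wild type had 2.80 to 3.84 CPM with a median of 3.07, from 126 to 192 reads. Those labelled *Gadd45a*-KO had 1.78 to 2.60 CPM with a median of 2.01, from 81 to 137 reads. The highest of the latter lay below the lowest of the former, a separation that 3.12% of all tested genes share. On the log2 scale the gene differed by -0.61 (standard error 0.11), and edgeR's quasi-likelihood test gave an adjusted p of 0.00447.

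*Pcdhb21* (ENSMUSG00000044022) lies at 37673306-37677967, with a coding sequence of 2322 nt and an annotated 3′UTR of 2169 nt that ends 39 nt before the start of *Pcdhb22*. Its level was 2.38 to 3.42 CPM (median 2.70, 108 to 171 reads) in the libraries labelled wild type. It was 1.71 to 2.10 CPM (median 1.92, 87 to 107 reads) in those labelled *Gadd45a*-KO, so that the labels did not overlap here either. The difference was -0.57 on the log2 scale (standard error 0.10), at an adjusted p of 0.00414 in edgeR's quasi-likelihood test. The spread within the libraries labelled *Gadd45a*-KO was small, with a coefficient of variation of 7.71%, below the 10.3% that counting error alone gives at this depth. For both genes the exact permutation test over the 12 libraries gave a two-sided p of 0.00216, the smallest it can give. Any gene whose labels do not overlap gets this unadjusted p, so it restates the separation, which 3.12% of all tested genes share.

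*Pcdhb16* (ENSMUSG00000047910, 37637422-37642689) and *Pcdhb19* (ENSMUSG00000043313, 37656651-37663781) are the longest beta genes, with annotated 3′UTRs of 2638 and 4568 nt. *Pcdhb16* had 6.37 to 8.48 CPM (median 7.58) in the libraries labelled wild type and 4.77 to 6.82 CPM (median 5.67) in those labelled *Gadd45a*-KO. *Pcdhb19* had 5.96 to 7.53 CPM (median 6.59) and 4.33 to 6.02 CPM (median 5.38). In each gene, 5 of 6 libraries labelled *Gadd45a*-KO lay below every library labelled wild type, and replicate 5 reached into the wild type range. The log2 fold changes were -0.38 (standard error 0.09, adjusted p = 0.0184) and -0.35 (standard error 0.09, adjusted p = 0.0265) by edgeR's quasi-likelihood test, past 5% but not 1% FDR. DESeq2 placed both past 1% FDR, at adjusted p-values of 0.00124 and 0.00283. With an offset for GC content, an alternative added after seeing the data, *Pcdhb16* kept 5% FDR in edgeR's test (adjusted p = 0.0450) and *Pcdhb19* did not (adjusted p = 0.0579).

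**Figure D2:**
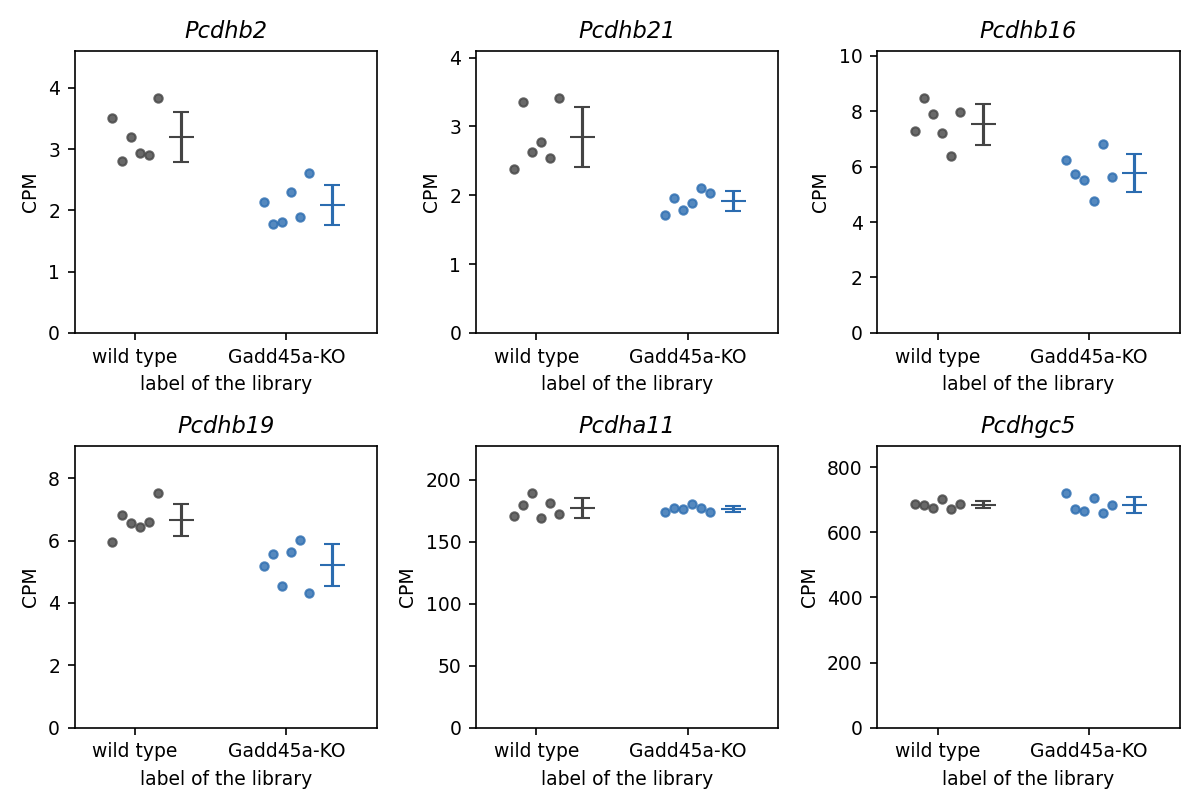
TMM-scaled CPM of 4 beta genes, the alpha model (*Pcdha11*) and the gamma model (*Pcdhgc5*), 1 point per library, with mean ± SD (n = 6) to the right of each group and axes that start at 0. The labels do not overlap for *Pcdhb2* and *Pcdhb21*, overlap by 1 library labelled *Gadd45a*-KO for *Pcdhb16* and *Pcdhb19*, and overlap for both merged models, with a wider spread under the *Gadd45a*-KO label in the gamma model.

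The calls at 1% FDR changed when single libraries were left out. Without replicate 6 labelled wild type, or replicate 1, 2 or 3 labelled *Gadd45a*-KO, 0 beta genes were called. Without replicate 1, 2 or 3 labelled wild type, or replicate 4 or 6 labelled *Gadd45a*-KO, 1 was called. *Pcdhb2* and *Pcdhb21* each stayed past 1% FDR in 5 of these 12 fits, and *Pcdhb16* passed it in 1. The first 2 genes stayed past 5% FDR in all 12, with adjusted p-values of at most 0.0144 and 0.0165 in edgeR's test. Their log2 fold changes ran from -0.68 to -0.55 and from -0.61 to -0.51. The share of all tested genes called in these fits was not examined. *Pcdhb16* stayed past 5% FDR in 8 and *Pcdhb19* in 4 of the 12.

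A pair of the libraries labelled *Gadd45a*-KO also stood apart in markers of a neighbouring tissue. The summed level of 11 tested markers of thalamus and habenula was 160 to 217 CPM in the libraries labelled wild type. It was 455 and 649 CPM in replicates 2 and 3 labelled *Gadd45a*-KO and 166 to 209 CPM in the other 4. None of the 12 markers listed was at 0, and 0 of the 11 tested passed 5% FDR. Replicates 2 and 3 had the lowest *Pcdhb2* levels of all, 1.78 and 1.81 CPM, but neither had the lowest of *Pcdhb21*, at 1.96 and 1.79 CPM. Without both libraries the log2 fold changes were -0.51 for *Pcdhb2* and -0.56 for *Pcdhb21*, from -0.61 and -0.57 with all libraries. The adjusted p-values were 0.0330 and 0.0277 in edgeR's test, so that 0 beta genes passed 1% FDR. This fit held 4 libraries labelled *Gadd45a*-KO and so has less power, and the share of all genes it called was not examined. *Pcdhb16* and *Pcdhb19* then no longer passed 5% FDR, at -0.36 and -0.33 with adjusted p-values of 0.0962 and 0.0926. Summed markers of oligodendrocytes ran from 2374 to 3752 CPM under the wild type label. Under the *Gadd45a*-KO label they ran from 3091 to 7432 CPM, with the second highest library at 3817 CPM. Summed markers of pyramidal neurons ran from 7656 to 7999 and from 7155 to 8489 CPM. Most of that sum was *Camk2a*, at means of 5768 and 5686 CPM (log2 fold change -0.02). *Wfs1* ran from 157 to 202 and from 90.5 to 209 CPM, and *Fibcd1* from 128 to 195 and from 92.9 to 208 CPM. Log2 fold changes were -0.25 for both, -0.06 for *Spink8*, 0.02 for *Slc17a7*, 0.08 for *Neurod6* and 0.15 for *Grik4*. Summed markers of granule cells ran from 525 to 749 and from 376 to 685 CPM. No tested marker of pyramidal neurons, granule cells, interneurons, choroid plexus, glia or endothelium passed 5% FDR either. At that level 4.43% of all tested genes were lower and 0.122% were higher. Such a count can miss a shift in part of a group, as with the thalamic markers in replicates 2 and 3 labelled *Gadd45a*-KO. The part of tissue makeup in the beta results was not tested beyond leaving out these libraries.

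The other 17 tested beta genes had log2 fold changes from -0.23 to 0.16, with adjusted p-values from 0.271 to 0.998. Their 95% intervals reached down to -0.51 and up to 0.39, and those of *Pcdhb6* and *Pcdhb8* include a change as large as that of *Pcdhb16*. The lowest of these fold changes were those of *Pcdhb6* (-0.23, standard error 0.14) and *Pcdhb8* (-0.21, standard error 0.13). Leaving out single libraries moved them from -0.30 to -0.13 in each gene. *Pcdhb22*, the next gene after *Pcdhb21*, had 5.79 ± 0.60 CPM under the wild type label and 5.17 ± 0.27 CPM under the *Gadd45a*-KO label, a log2 fold change of -0.16 (standard error 0.07) that ran from -0.19 to -0.10 without single libraries. At the other end, *Pcdhb12* had 7.54 ± 0.47 and 8.43 ± 0.71 CPM, which is 0.16 on the log2 scale (standard error 0.07) at an adjusted p of 0.271 in edgeR's test. *Pcdhb4* and *Pcdhb13* followed at 0.15 and 0.14.

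Over the whole beta cluster, 17 of 21 log2 fold changes were below 0 (81.0%), against 48.2% of all tested genes, and their median was -0.09 against 0.00 over all tested genes. The summed beta level was 146.9 to 158.0 CPM (median 150.7) in the libraries labelled wild type and 131.4 to 151.5 CPM (median 142.7) in those labelled *Gadd45a*-KO. These ranges overlapped, and the difference of mean log2 CPM was -0.09, with an SD between libraries of 0.04 under the wild type label and 0.07 under the *Gadd45a*-KO label. The 4 genes past 5% FDR summed to 20.2 ± 1.63 and 15.0 ± 1.06 CPM, and the other 18 beta genes to 131.4 ± 3.45 and 127.1 ± 6.40 CPM. Without replicates 2 and 3 labelled *Gadd45a*-KO, the median fold change of the tested beta genes was -0.04 on the log2 scale.

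Levels of the beta genes were compared per kb of annotated exon, since the genes range from 2350 to 7131 nt. *Pcdhb17* and *Pcdhb9* were highest under the wild type label, at 5.62 ± 0.33 and 5.53 ± 0.25 CPM per kb, and did not differ beyond their spread. *Pcdhb7* followed at 3.41 ± 0.31 and *Pcdhb20*, annotated as a pseudogene, at 3.19 ± 0.24 CPM per kb, again within their spread. The lowest were *Pcdhb4* at 0.765 ± 0.119, *Pcdhb21* at 0.612 ± 0.094 and *Pcdhb1* at 0.079 ± 0.051 CPM per kb. *Pcdhb21* was thus the lowest tested beta gene per length. *Pcdhb2* (1.15 ± 0.14 CPM per kb), *Pcdhb16* (1.43 ± 0.14 CPM per kb) and *Pcdhb19* (0.933 ± 0.073 CPM per kb) also lay below the middle of the order. *Pcdhb4* and *Pcdhb8* had mean levels of 2.85 and 2.15 CPM, near the 3.20 CPM of *Pcdhb2*, and were not called. The order was much the same under the *Gadd45a*-KO label, with *Pcdhb17* and *Pcdhb9* at 5.29 ± 0.42 and 5.24 ± 0.41 CPM per kb and *Pcdhb21* at 0.410 ± 0.032.

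**Figure D3:**
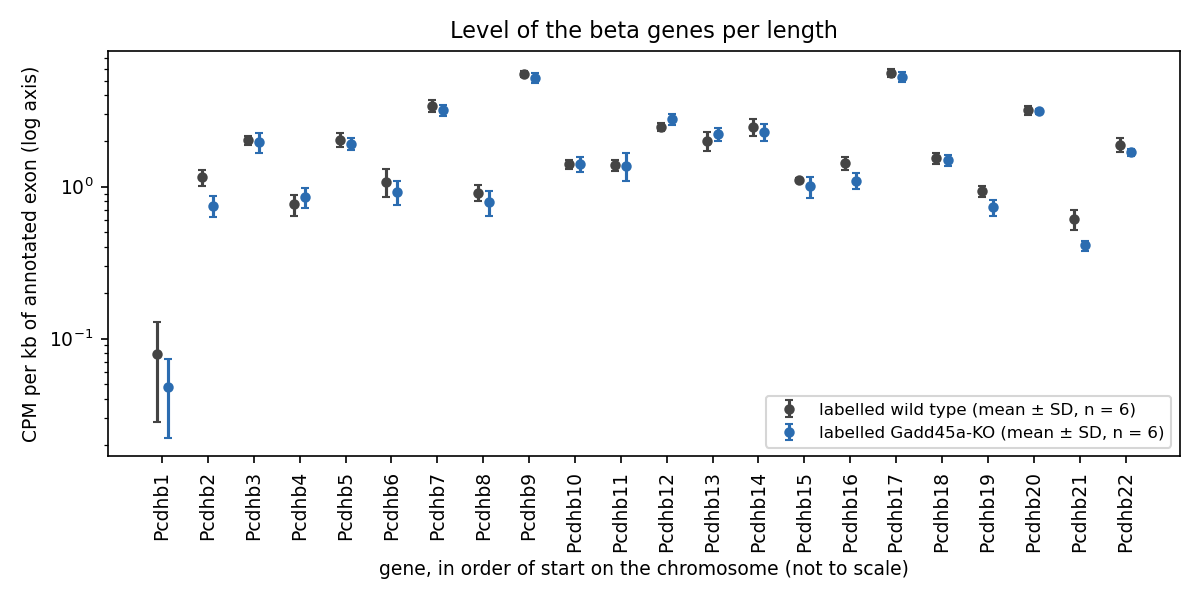
Level of all 22 beta genes in CPM per kb of annotated exon on a log axis, as mean ± SD of 6 libraries per label, in chromosomal order. Levels span from 0.079 CPM per kb in *Pcdhb1* to 5.62 CPM per kb in *Pcdhb17* under the wild type label.

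Spread between libraries of one label was larger than counting error for most beta genes. The coefficient of variation had a median of 8.99% under the wild type label and 11.1% under the *Gadd45a*-KO label, against 5.26% and 5.93% from counting alone. It was below the counting error in 2 and 3 of the 21 tested genes.

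Annotated length was set beside the fold changes, because the study turned on mRNAs with long 3′UTRs. Of the 4 tested beta genes with an annotated 3′UTR over 2000 nt, 3 were lower at 5% FDR (*Pcdhb16*, *Pcdhb19* and *Pcdhb21*), and *Pcdhb18* (2506 nt) was not, at -0.04 (standard error 0.07). Of the 16 with a shorter one, 1 was lower, *Pcdhb2*. The limit of 2000 nt was chosen after the values were seen. With a limit of 1000 nt the counts were 3 of 8 and 1 of 12, with median log2 fold changes of -0.04 and -0.10. Across the 20 genes with a coding annotation, fold change and 3′UTR length had a Pearson's r of -0.26 and a Spearman's rho of 0.07. Over the 21 tested genes, Spearman's rho was 0.45 for level per kb, 0.40 for mean CPM and 0.34 for the share of read-length stretches found elsewhere in the genome. It was 0.03 for exon length, 0.09 for GC content and -0.17 for order on the chromosome. Each 3′UTR was taken from the transcript with the longest coding sequence, which gave *Pcdhb6* and *Pcdhb8* 0 nt. *Pcdhb6* nevertheless has 3406 nt of annotated exon and 2316 nt of coding sequence, so its value may be too low. Genes in an array share libraries and are not independent replicates, so this is a description only. Reads in 3′UTR extensions beyond the annotation were not analysed here.

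**Figure D4:**
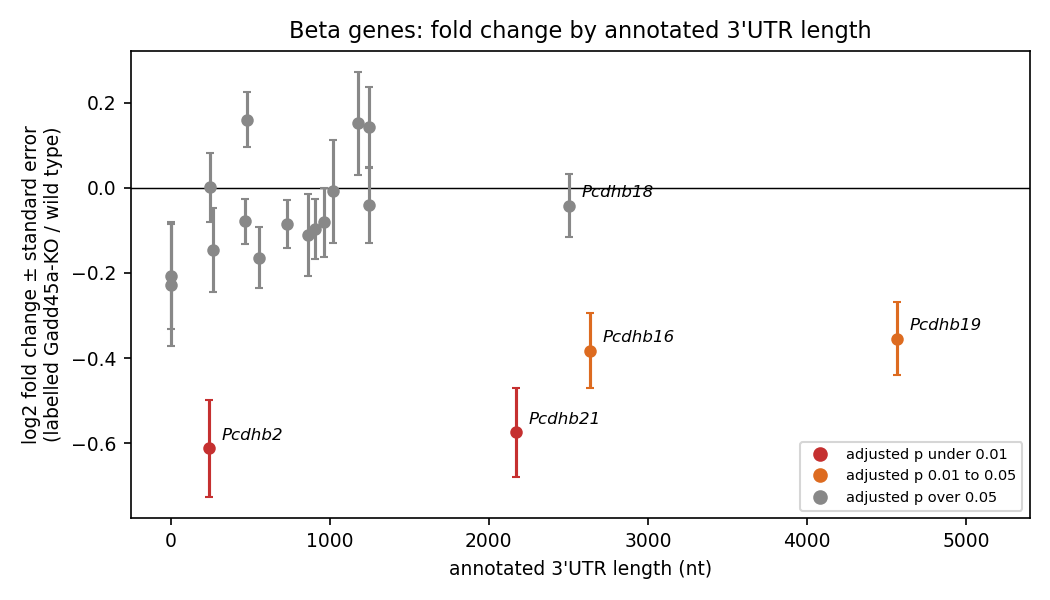
Log2 fold change with standard error of 20 tested beta genes against their annotated 3′UTR length in nt, with colours for the adjusted p. *Pcdhb2* was lower at a 3′UTR of 238 nt, and 3 of 4 genes past 2000 nt were lower, a limit chosen after the values were seen. Over the 20 genes, Spearman's rho of fold change and 3′UTR length was 0.07. *Pcdhb6* and *Pcdhb8* stand at 0 nt, the value of their transcript with the longest coding sequence.

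The lower genes were not neighbours in the array. *Pcdhb2* is near the start of the beta array and *Pcdhb16*, *Pcdhb19* and *Pcdhb21* are in its last part, with *Pcdhb17*, *Pcdhb18* and *Pcdhb20* between them at log2 fold changes of -0.09, -0.04 and -0.03. *Pcdhb19* ends 144 nt before *Pcdhb20*, so reads past an annotated end would fall on the next gene. Of all stretches of 51 nt, the length of a read, 1.91% in *Pcdhb2*, 1.88% in *Pcdhb16*, 3.02% in *Pcdhb19* and 2.45% in *Pcdhb21* occur elsewhere in the genome. The beta genes ranged from 0% in *Pcdhb1* to 11.6% in *Pcdhb12*. Reads from such stretches do not align uniquely, and unequal loss of them between near-identical paralogs is not visible in the counts.

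The alpha model (*Pcdha11*) had 169 to 189 CPM (median 176) in the libraries labelled wild type and 174 to 180 CPM (median 177) in those labelled *Gadd45a*-KO. The labels overlapped throughout, and the fold change on the log2 scale was -0.00 with a 95% interval from -0.07 to 0.06 (adjusted p = 0.973 in edgeR's test). *Pcdha3* had 2.24 ± 0.39 and 2.76 ± 0.35 CPM, from 83 to 162 reads, and 4 of 6 libraries labelled *Gadd45a*-KO lay above every library labelled wild type. Its log2 fold change of 0.30 (standard error 0.12) did not pass the adjustment (adjusted p = 0.264), and 15.0% of its read-length stretches occur elsewhere in the genome, against 9.56% of the alpha model.

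The gamma model (*Pcdhgc5*) had 672.6 to 701.1 CPM (median 684.6) under the wild type label and 657.5 to 721.3 CPM (median 678.3) under the *Gadd45a*-KO label. Of the 6 libraries labelled *Gadd45a*-KO, 3 lay below and 2 above the whole wild type range, with SDs of 24.5 and 10.4 CPM. On the log2 scale the labels differed by 0.00 with a 95% interval from -0.06 to 0.06 (adjusted p = 0.998 in edgeR's test). The gamma model took 67.7% of the reads on clustered protocadherins, the alpha models 17.7% and the beta genes 14.5%, shares that are not levels per length. An offset for annotated length moved both merged models up, to 0.19 for the alpha model (adjusted p = 0.0176) and 0.21 for the gamma model (adjusted p = 0.0660). Their annotated lengths of 24688 and 28980 nt add up alternative first exons that no single transcript holds. The intervals apply to the sum of the isoforms in each model, and isoforms that rose and fell within it would not be seen. Each model has 10 first exons, where RefSeq names 14 alpha and 22 gamma genes. Reads on first exons outside the models used here would not be counted.

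Among regulators of the clustered protocadherin promoters, 4 of 26 tested were lower at 1% FDR, beside 2.62% of all tested genes, and 0 were higher, with a median log2 fold change of -0.05. The lower genes were *Nipbl*, which loads cohesin, the cohesin-binding factors *Pds5a* and *Pds5b*, and the heterochromatin protein *Cbx5*. *Pds5a* changed most, from 37.7 ± 3.03 to 25.6 ± 2.05 CPM (log2 fold change -0.56, adjusted p = 8.12e-05 by edgeR's test). *Nipbl* was at -0.37, *Pds5b* at -0.28 and *Cbx5* at -0.26. *Cbx5* did not pass 1% FDR without replicates 2 and 3 labelled *Gadd45a*-KO, at -0.24 (adjusted p = 0.0196 in edgeR's test). At 5% FDR 8 of the 26 were lower, beside 4.43% of all tested genes.

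Protocadherins outside the clusters gave 1 lower gene at 1% FDR and 2 at 5% FDR among 12 tested, where 2.62% and 4.43% of all tested genes were lower. *Pcdh7* had 13.9 to 17.0 CPM in the libraries labelled wild type and 7.33 to 10.2 CPM in those labelled *Gadd45a*-KO, without overlap (log2 fold change -0.88, standard error 0.08, adjusted p = 1.06e-05 by edgeR's test). That separation was seen in 3.12% of all tested genes. *Pcdh19* was at -0.30 (adjusted p = 0.0150), past 5% FDR but not with the length offset (adjusted p = 0.0800). Of 25 tested protein partners and effectors of protocadherins, 0 passed 1% or 5% FDR. *Abi2* of the WAVE complex was closest in edgeR's test, at -0.13 with an adjusted p of 0.0501.

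Within 1 Mb of the clusters, 42 of 58 other genes were tested and 0 passed 1% FDR, where 2.62% of all tested genes were lower. At 5% FDR 2 of the 42 were lower, beside 4.43% of all tested genes. These were *Pura* (-0.19, adjusted p = 0.0113) and *Ankhd1* (-0.37, adjusted p = 0.0189) in edgeR's test. *Pura* lost the 5% FDR call with the length offset (adjusted p = 0.465). *Fgf1*, a fibroblast growth factor, had 39.1 to 45.1 CPM under the wild type label and 46.5 to 55.1 CPM under the *Gadd45a*-KO label. Such an upward separation without overlap was seen in 0.183% of all tested genes. The log2 fold change of *Fgf1*, 0.18, missed 5% FDR in edgeR's test (adjusted p = 0.0546) and passed it with the length offset (adjusted p = 0.0395). With that offset, 0.262% of all tested genes were higher at 5% FDR. Between the beta and gamma clusters, *Taf7*, a subunit of the general transcription factor TFIID, was at 0.14 (standard error 0.07, adjusted p = 0.355), and *Slc25a2* had 3 to 15 reads and was not tested. After the gamma cluster, *Diaph1*, listed as *Diap1*, was at -0.10 (adjusted p = 0.378) and *Hdac3* at -0.01 (adjusted p = 0.956).

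The genes whose deviations from the label means were most like those of *Pcdhb2* over the 12 libraries were *Dhrs4* (Pearson's r 0.908), *Sla* (0.893) and *March4* (0.868), out of 16206 genes compared. For *Pcdhb21* they were *Lama4* (0.942), *Snord16a* (0.878) and *Crlf3* (0.858). These are the extremes of many comparisons over few libraries and are given as a description. Among the tested beta genes themselves, such correlations had a median of 0.11 over 210 pairs.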

How the data were processed

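Hippocampal poly(A) RNA of 12 mice was sequenced from stranded libraries as 51-base single reads. Per the labels and the study's methods, the authors aligned reads with TopHat 1.4.1 to NCBIM37/mm9, counted them per gene of Ensembl 66 with HTSeq 0.5.4p3 by strand, and deposited the raw counts without normalization or pooling. Reads overlapping several genes (0.552% to 0.610% of the reads listed) and reads not aligned uniquely are left out of gene totals.

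Symbols, exons and UTRs came from an annotation of the same build one release earlier (Ensembl 65), which matched 37205 of 37991 IDs, so gene models could differ in part from those counted. RefSeq was used for names only. Counts were filtered, TMM-scaled and tested with edgeR 4.0.16 (R 4.3.3) without covariates. Standard errors were obtained by dividing the size of each log2 fold change by the root of its F statistic, and 95% intervals use 1.96 standard errors. Log2 CPM used a prior count of 2. DESeq2 1.42.0, other scalings and filters, the replicate number as a block, spline offsets (5 degrees of freedom) for length or GC content, and leaving out libraries were alternatives. Exact tests used scipy 1.17.1. The procedures were tested on simulated data whose changes were larger than any beta fold change here.

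Named genes are the members past 5% FDR, those with extreme levels or fold changes per cluster, neighbours, and list genes past 1% FDR or with the smallest p. The other genes named were chosen after their values were seen. One gene of the promoter regulator list is not reported here and was left out of its counts. The members and lists were chosen with earlier results of these data known. The tests treat each mouse as a replicate, and siblings may share litters, which no source states. Counting error at these depths is given beside the values, and PCR duplicates were not distinguished.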

Additional observations from a re-analysis of the deposited data

Results flagged for a closer look

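In groups of 6 libraries, 4 of 90 groups examined held a value far from the rest, where chance gives about 1 in 20 groups (4.5). *Pcdhb1* had 0.437 CPM in replicate 5 labelled wild type, against 0.0999 to 0.198 CPM in the other 5, at counts too low to be tested. *Pcdhb18* had 6.31 CPM in replicate 2 labelled *Gadd45a*-KO, against 7.52 to 8.23 CPM in the others. *E230016M11Rik* had 3.88 CPM in replicate 6 labelled wild type, against 3.27 to 3.47 CPM. *Pds5a* had 29.5 CPM in replicate 5 labelled *Gadd45a*-KO, against 23.7 to 25.7 CPM, and stayed below the wild type range.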

How the results depend on the processing

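The count of beta genes lower at 1% FDR, 2 by edgeR, was 4 with DESeq2, 4 at 5% FDR and 0 without replicates 2 and 3 labelled *Gadd45a*-KO, an alternative added after seeing the data. It ranged from 0 to 2 when each library was left out in turn. The cause of these shifts was not tested. An offset for length gave a log2 fold change of 0.21 for the gamma model, without and with the replicate block. For the alpha model it gave 0.19, past 5% FDR (adjusted p = 0.0176 by edgeR) from -0.00 without it. No result past 1% FDR changed direction.

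Equal replicate numbers are not stated to mark a shared litter or day. Their deviations correlated by 0.140 on average against -0.028 for different numbers, over 0.1 in 5 of 6 pairs. In 1 of 6 pairs each library was the other's best match across the labels. With the replicate number as a block, 2 beta genes were lower at 1% FDR, beside 3.1% of all tested genes, and the adjusted p was 0.00237 for *Pcdhb2*, 0.00505 for *Pcdhb21*, 0.0456 for *Pcdhb16* and 0.0573 for *Pcdhb19*. *Ankhd1* and *Pcdh19* passed 1% FDR under it (adjusted p = 0.00235 and 0.00379 by edgeR), and *Fgf1* passed 5% FDR (0.0335), where 0.293% of all tested genes were higher. With the GC offset and the block together, the adjusted p was 0.0881 for *Pcdhb16* and 0.0982 for *Pcdhb19*. The block raised the lower calls among promoter regulators from 4 to 7. Depth limits *Pcdhb1* and the genes with about 100 reads per library.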
